A study of Homo sapiens with 8 samples.

Results

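WPMY-1 cells, a myofibroblast line made from the stroma of a human prostate and immortalized with the large T antigen of a polyomavirus, were treated with Pao extract, and their transcripts were set against those of WPMY-1 cells given the vehicle. The comparison takes every array titled as WPMY-1, which is 4 of the 8 arrays in the series. Of these, 2 arrays hold cells treated with 250 μg/ml Pao extract and 2 hold cells treated with vehicle. Pao extract is a bark extract of the South American tree Geissospermum vellosii, rich in β-carboline alkaloids and dissolved in DMSO. The labels give a treatment of 48 h for both groups, and the methods of the study give a shorter time for the arrays. The other 4 arrays hold BPH-1 cells, an immortalized line of prostate epithelium, with 2 arrays for each of the same treatments. They serve to set the WPMY-1 effect beside a second line. They also enter the choice of probe set per gene and the spread behind the standard errors and p-values given for WPMY-1. Nothing in the labels or methods tells if arrays of 1 group are separate cultures, and the p-values may therefore cover technical spread alone. The line is immortalized and was grown without the epithelium that surrounds stroma in the gland, which limits it as a model of that tissue.

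Myofibroblasts combine the secretion of fibroblasts with part of the contractile machinery of smooth muscle, and in the prostate they lay down the collagens, proteoglycans and glycoproteins of the stroma and send growth factors to the epithelium. All cells also watch the sterol content of their membranes. While sterols are plentiful, INSIG proteins hold the SREBP transcription factors and their escort SCAP in the endoplasmic reticulum, and when sterols run low the SREBPs move to the Golgi, are cut free and switch on the enzymes that make and take up cholesterol and fatty acids.

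Transcript levels are log2 values after RMA, the background correction, normalization and probe summary that the authors used, so a difference of 1 is a doubling of signal. They carry no detection calls, and levels of different genes are not on a scale that allows comparison between genes. As a rough guide to background, *PTPRC*, which marks leukocytes, lay at 2.45 and 2.49 on the Pao arrays and at 2.44 and 2.43 on the vehicle arrays, and the median of 19 leukocyte markers was 4.37 and 4.45 with Pao and 4.27 and 4.31 with vehicle. Genes with a mean of 7 or more in either WPMY-1 group were therefore taken as well above background. This held for 6172 of 22465 genes, some of which, such as *HSD17B7P2* with Pao and *LXN* with vehicle, reached 7 in only 1 group.

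Of the defining markers, the mesenchymal one was well above background, and several of contractile or resting stroma were below level 7 in both groups. *VIM*, the intermediate filament of mesenchymal cells, had levels of 10.32 and 10.37 with Pao and 10.42 and 10.50 with vehicle. The epithelial adhesion proteins *EPCAM* (4.59 and 4.47 with Pao, 4.48 and 4.52 with vehicle) and *CDH1* (4.68 and 4.55 with Pao, 4.54 and 4.44 with vehicle) were near the leukocyte level. This did not hold for all epithelial markers: 4 of the 20 measured were at level 7 or more, namely *KRT18*, *OCLN*, *KRT8* and *DSP*. *KRT18* was at 8.84 and 8.71 with Pao and at 9.05 and 8.95 with vehicle. *OCLN* was at 7.71 and 7.80 with Pao and at 7.33 and 7.45 with vehicle. *ACTA2*, the smooth muscle actin by which myofibroblasts are usually recognized, was at 6.06 and 6.33 with Pao and at 6.20 and 6.20 with vehicle. *MYH11* and *DES*, a myosin and a filament of mature smooth muscle, lay between 4.75 and 5.43 on the 4 arrays, and *DCN*, a proteoglycan of fibroblasts, between 4.50 and 4.98. These levels are those of single probe sets and are not ranked against each other.

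Across all genes, the difference of the group means put 88 past 1.4-fold upward with Pao extract (0.392% of those tested) and 142 past it downward (0.632%). The cutoff is that of the study and involves no test. Limma, fitted over all 8 arrays with Benjamini-Hochberg adjustment over all genes, called 10 genes higher (0.0445%) and 5 lower (0.0223%), and an unadjusted p under 0.05 was reached by 1463 upward (6.51%) and 1049 downward (4.67%). The calls depended on the fit: limma called 0 higher and 0 lower when fitted on the 4 WPMY-1 arrays alone, where the methods' t-test gave 1017 and 610 before adjustment, and leaving out any 1 of the 8 arrays left 0 to 5 higher and 0 to 4 lower. Many of the genes past the fold were close to background. Among the 6172 genes at level 7 or more, 45 were past 1.4-fold upward (0.729%) and 47 downward (0.762%), and the calls of limma shrank to 4 higher (0.0648%) and 2 lower (0.0324%), with 4.8% and 8.7% at an unadjusted p under 0.05. Leaving out the first Pao array raised the counts at level 7 or more to 73 higher and 127 lower, leaving out the second vehicle array raised them to 86 and 154, and the decreases numbered 26 without the second Pao array and 29 without the first vehicle array. Both arrays of the Pao group lay beyond both arrays of the vehicle group in 44 of the 45 higher genes (0.713% of all at this level) and in 45 of the 47 lower ones (0.729%); over all genes at this level the arrays separated in this way in 14.5% upward and 30.8% downward. This separation is not independent of the fold that chose the genes. The exceptions were *VTRNA2-1* among the higher genes and *CYP1B1* and *PLCB4* among the lower. Next to the cutoff, *SLC17A5* was inside at 0.49 and *MICB* outside at 0.48 among the higher genes, and *SPDL1* was inside at -0.49 and *CHORDC1* outside at -0.49 among the lower.

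**Figure D1:**
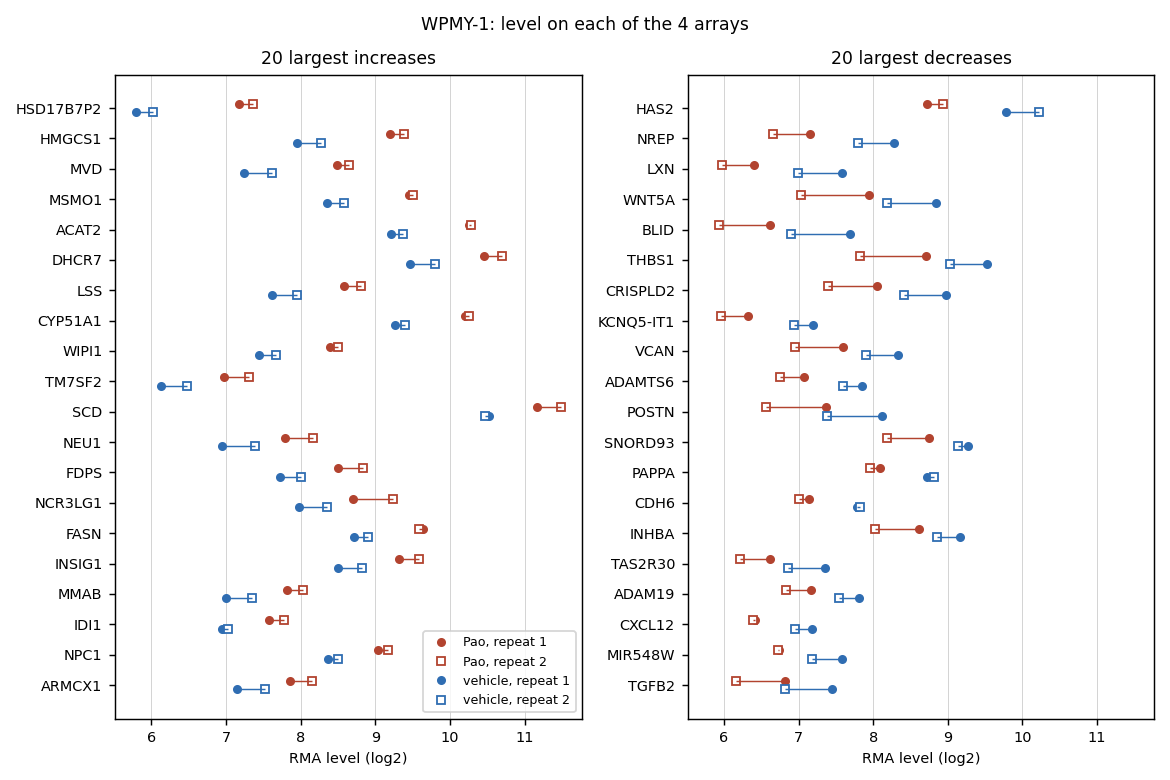
RMA level (log2, horizontal axis) on each of the 4 WPMY-1 arrays for the 20 genes with the largest increase (left) and the 20 with the largest decrease (right) among genes at level 7 or more whose groups do not overlap; red, Pao, and blue, vehicle, with filled circles for arrays numbered 1 and open squares for arrays numbered 2. Differences run from 1.36 for HSD17B7P2 to 0.67 for ARMCX1 on the left and from -1.18 for HAS2 to -0.65 for TGFB2 on the right, and the lines that join the arrays of a group are mostly longer on the right.

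The genes that were higher with Pao extract were above all those of sterol synthesis. Of the 45 higher genes at level 7 or more, 21 stand on 4 lists of sterol and fatty acid metabolism, with a median difference of 0.80 and a median of 0.49 for the same genes in BPH-1 cells. In 19 of these 21 genes even the closest pair of arrays from different groups was more than 1.4-fold apart. Among the remaining 24 higher genes that separation was reached by 3. In all, 47 genes of the 4 lists were measured, of which 44 were above 0, where 59.8% of all genes were above and 40.2% below, and 24 passed 1.4-fold. The median over the 47 genes was 0.51, against 0.03 over all genes.

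The mevalonate pathway builds the isoprenoid units from acetyl-CoA, and 6 of its 8 measured genes passed 1.4-fold, where 0.392% of all genes did. *HMGCS1*, which condenses acetoacetyl-CoA with acetyl-CoA, was at 9.20 and 9.39 with Pao and at 7.94 and 8.27 with vehicle, a difference of 1.19 (standard error 0.21, adjusted p = 0.144 from limma). *MVD*, the decarboxylase that yields isopentenyl diphosphate, was at 8.48 and 8.65 with Pao and at 7.24 and 7.62 with vehicle, and rose by 1.14 (standard error 0.14, adjusted p = 0.0497 from limma). *ACAT2*, the thiolase that makes acetoacetyl-CoA, was at 10.25 and 10.29 with Pao and at 9.22 and 9.37 with vehicle. In all 3 genes the Pao arrays stood clear of the vehicle arrays by more than the spread within either group. *FDPS*, which joins the units into farnesyl diphosphate, differed by 0.81, *IDI1*, the isomerase before it, by 0.69, and *MVK*, the mevalonate kinase, by 0.51 at levels of 6.72 and 6.87 with Pao and 6.19 and 6.39 with vehicle. *PMVK*, the next kinase, had a difference of 0.20 with overlapping arrays.

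Beyond squalene, where the chain is closed and trimmed to cholesterol, 11 of 12 measured genes passed 1.4-fold (0.392% of all genes), all with arrays that did not overlap (27% of all genes). *LSS*, the cyclase that closes the rings, was at 8.58 and 8.80 with Pao and at 7.61 and 7.95 with vehicle, a difference of 0.91 (standard error 0.14, adjusted p = 0.096 from limma). *CYP51A1*, the lanosterol demethylase, was at 10.21 and 10.26 with Pao and at 9.26 and 9.40 with vehicle, a difference of 0.90. *MSMO1*, a methylsterol oxidase later in the pathway, was at 9.45 and 9.50 with Pao and at 8.35 and 8.58 with vehicle, a difference of 1.01. Each of these differences was close to a doubling of signal. *DHCR7*, the last reductase, was at 10.45 and 10.70 with Pao and at 9.47 and 9.80 with vehicle, a difference of 0.95. *ERG28*, a scaffold of the demethylating enzymes, was at 9.63 and 9.63 with Pao and at 8.93 and 9.01 with vehicle, and rose by 0.66 (standard error 0.08, adjusted p = 0.0488 from limma). *NSDHL*, a dehydrogenase, had the same difference of 0.66 with a standard error of 0.11 and did not pass. *TM7SF2*, a sterol reductase, differed by 0.84, *EBP*, an isomerase, and *SC5D*, a desaturase, by 0.63 and 0.62, and *SQLE*, which makes the epoxide of squalene, by 0.57. *HSD17B7*, the ketoreductase of the pathway, rose by 1.20 (adjusted p = 0.0434 from limma) at the low levels of 6.44 and 6.61 with Pao and 5.19 and 5.47 with vehicle. Its pseudogene *HSD17B7P2* was at 7.17 and 7.36 with Pao and at 5.80 and 6.02 with vehicle (difference 1.36, adjusted p = 0.0201 from limma), and since the copies are near-identical the probes of either may bind RNA of the other. *LBR*, a reductase that also anchors chromatin at the nuclear envelope, was the 1 gene of the list under the fold, at 0.05.

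Fatty acid genes formed a narrower group. All 15 measured genes were above 0, where 59.8% of all genes were. The fold of 1.4 was passed by 5 of them (0.392% of all genes), and the median was 0.18. *SCD*, the desaturase that makes oleate, was at 11.16 and 11.48 with Pao and at 10.53 and 10.47 with vehicle, a difference of 0.83 (standard error 0.16, adjusted p = 0.156 from limma). *FASN*, the fatty acid synthase, was at 9.64 and 9.58 with Pao and at 8.72 and 8.91 with vehicle, a difference of 0.80. *FADS2*, which desaturates polyunsaturated fatty acids, was at 8.34 and 8.37 with Pao and at 7.69 and 7.82 with vehicle, and rose by 0.60 (standard error 0.07, adjusted p = 0.0497 from limma). The Pao arrays of these genes lay above both vehicle arrays. *ACSS2*, which makes acetyl-CoA from acetate, rose by 0.83 (adjusted p = 0.0497 from limma) at levels of 6.44 and 6.58 with Pao and 5.57 and 5.79 with vehicle. *LPIN1*, a phosphatidate phosphatase that SREBPs are known to switch on, differed by 0.62. *ACLY*, which makes cytosolic acetyl-CoA from citrate, differed by only 0.20.

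Among the genes of sterol sensing, uptake and transport, 9 of 12 were above 0 and 2 passed 1.4-fold. Of all genes 59.8% were above 0 and 0.392% passed 1.4-fold upward. *INSIG1*, the retention protein of the SREBPs, was at 9.32 and 9.58 with Pao and at 8.50 and 8.82 with vehicle, a difference of 0.79 (standard error 0.22, adjusted p = 0.334 from limma). *NPC1*, which lets cholesterol out of lysosomes, was at 9.04 and 9.17 with Pao and at 8.36 and 8.49 with vehicle, a difference of 0.68 (standard error 0.10, adjusted p = 0.0954 from limma). Both separated the groups. The transcription factors themselves had smaller differences, 0.39 for *SREBF2* at 7.61 and 7.59 with Pao and 7.17 and 7.24 with vehicle, and 0.27 for *SREBF1*. *STARD4*, a carrier of cholesterol in the cytosol, differed by 0.40, while *MBTPS2*, a protease that frees the SREBPs, was at -0.22. Genes of sterol efflux, which the LXR receptors switch on when sterols are in excess, gave no member past 1.4-fold: all 9 measured genes were above 0 with a median of 0.11, and the efflux pump *ABCA1* was at 7.04 and 7.16 with Pao and 6.96 and 7.09 with vehicle, which overlap.

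Some genes outside the lists have known ties to sterols or lipids and were picked after their values were seen. *TMEM97*, the sigma-2 receptor, which binds *NPC1*, was at 8.46 and 8.47 with Pao and at 7.74 and 7.97 with vehicle, a difference of 0.61. *MMAB*, a cobalamin enzyme that shares a promoter region with *MVK*, had means of 7.93 with Pao and 7.17 with vehicle, a difference of 0.75. *PCYT2*, of phosphatidylethanolamine synthesis, differed by 0.51, and *OLMALINC*, a noncoding RNA beside *SCD*, by 0.49. All of these separated the groups.

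**Figure D2:**
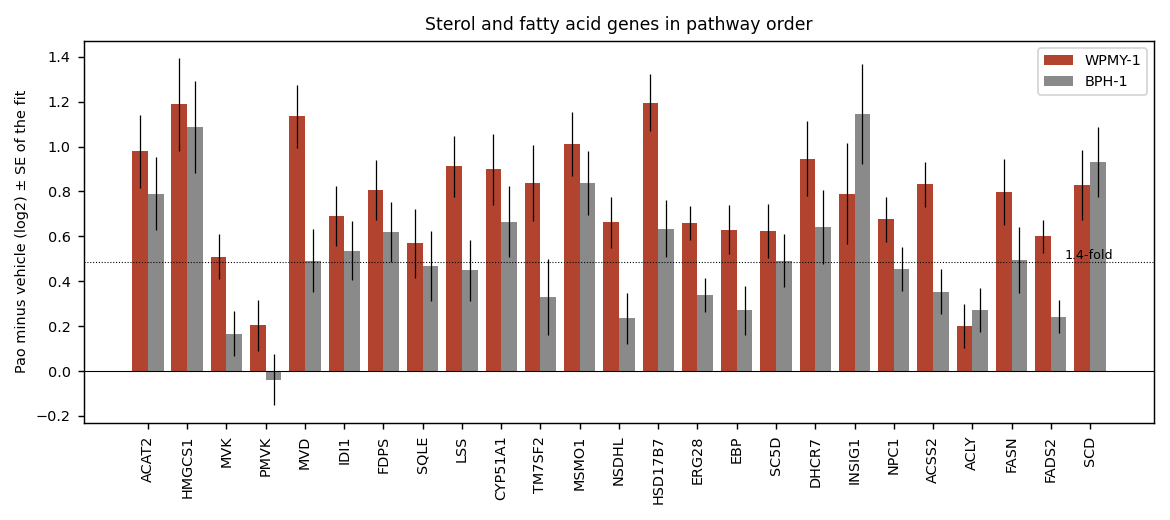
Difference of Pao minus vehicle (log2, vertical axis) for sterol and fatty acid genes ordered from acetyl-CoA through mevalonate and squalene to cholesterol, then regulators and fatty acid enzymes; red bars WPMY-1, grey bars BPH-1, error bars the standard error of the fit over 8 arrays, dotted line 1.4-fold. In WPMY-1 the bars run from 0.20 for PMVK and ACLY to 1.20 for HSD17B7, and INSIG1, SCD and ACLY have a taller bar in BPH-1 (1.14, 0.93 and 0.27).

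In BPH-1 cells the same 47 genes had a median of 0.28, 42 were above 0 and 14 passed 1.4-fold. The difference between the lines was above 0 in 34 of the 47 genes and below 0 in 13. No gene of the 47 passed limma's test of that difference (lowest adjusted p = 0.686), and 10 had an unadjusted p under 0.05. Among the genes named above, the contrast of WPMY-1 minus BPH-1 was 0.75 for *HSD17B7P2*, 0.64 for *MVD*, 0.56 for *HSD17B7* and -0.46 for *STARD4*.

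The promoters of these genes were searched for the letters that the SREBPs and their partner NF-Y are known to bind. The window was the RefSeq promoter in GRCh38.p14, from 250 bases before to 50 bases after each start site, and 21 of the 24 list genes past 1.4-fold have one. The longer sterol motif, TCACNCCAC, was in none of the 21 windows, in 1 of the 21 other genes of the same lists that have a window (4.76%) and in 1.39% of the 27305 genes with a window. The shorter form CACNCCAC, which overlaps the longer, was in 4 of the 21 genes (19%), in 2 of the 21 other list genes (9.52%) and in 7.05% of all genes. CCAAT, the NF-Y box, was in 18 of the 21 genes (85.7%), in 9 of the 21 other list genes (42.9%) and in 39.7% of all genes. Both strands were searched, a match is only a match of letters, and the absence of one says nothing about binding outside the window or to other forms of the site. The 4 windows with the shorter sterol motif are shown because they hold both sets of letters; capitals mark CACNCCAC and CCAAT or their reverse complements, and all are written 5′ to 3′ on the strand of the gene.
SCD, chr10:100346983-100347282, plus strand: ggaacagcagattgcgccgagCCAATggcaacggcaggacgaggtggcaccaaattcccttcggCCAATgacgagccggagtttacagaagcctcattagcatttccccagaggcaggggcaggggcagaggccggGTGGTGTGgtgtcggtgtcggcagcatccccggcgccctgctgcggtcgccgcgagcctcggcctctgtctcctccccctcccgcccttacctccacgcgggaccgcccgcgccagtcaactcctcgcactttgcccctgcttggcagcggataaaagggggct
INSIG1, chr7:155297628-155297927, plus strand: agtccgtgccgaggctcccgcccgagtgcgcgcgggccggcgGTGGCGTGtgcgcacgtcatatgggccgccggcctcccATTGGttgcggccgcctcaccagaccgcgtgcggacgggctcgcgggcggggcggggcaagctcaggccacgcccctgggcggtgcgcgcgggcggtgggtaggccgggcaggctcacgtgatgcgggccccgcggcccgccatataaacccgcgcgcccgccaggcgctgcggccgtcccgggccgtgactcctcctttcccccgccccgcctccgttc
IDI1, chr10:1048837-1049136, minus strand: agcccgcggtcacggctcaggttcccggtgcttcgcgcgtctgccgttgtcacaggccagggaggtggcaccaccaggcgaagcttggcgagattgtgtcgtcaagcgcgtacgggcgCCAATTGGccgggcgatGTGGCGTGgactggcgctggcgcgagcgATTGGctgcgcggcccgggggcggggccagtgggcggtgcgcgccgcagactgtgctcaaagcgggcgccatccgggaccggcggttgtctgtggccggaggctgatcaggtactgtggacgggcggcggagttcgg
SC5D, chr11:121292521-121292820, plus strand: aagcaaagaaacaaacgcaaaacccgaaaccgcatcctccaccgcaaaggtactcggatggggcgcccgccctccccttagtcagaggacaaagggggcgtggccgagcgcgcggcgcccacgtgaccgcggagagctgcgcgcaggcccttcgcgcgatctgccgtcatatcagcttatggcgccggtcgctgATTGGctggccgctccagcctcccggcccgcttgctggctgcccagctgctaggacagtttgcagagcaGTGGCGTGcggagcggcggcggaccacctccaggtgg

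In these windows the sterol letters lay on the reverse strand in every case, at -114 from the start site in *SCD*, -208 in *INSIG1*, -115 in *IDI1* and 14 bases after it in *SC5D*. A CCAAT box stood between the sterol letters and the start site in *INSIG1* at -170 and in *IDI1* at -87, and upstream of them in *SCD* at -229 and -186. *IDI1* also held boxes on opposite strands that overlap, at -132 and -129, and *SC5D* held 1 at -56. On the arrays, *SCD* and *INSIG1* had the levels given above, *IDI1* was at 7.57 and 7.78 with Pao and at 6.94 and 7.03 with vehicle, and in *SC5D* the difference was 0.62.

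Lysosomal genes were mostly above 0, by less, and their median of 0.19 depended on single arrays: it was 0.0863 without the second Pao array, 0.0786 without the first vehicle array and 0.314 without the second vehicle array. Of 30 measured genes 29 were above 0, all 24 at level 7 or more were above 0, where 39.6% of genes at that level were, and the median at that level was 0.21. *NEU1*, the sialidase whose loss causes sialidosis, was at 7.79 and 8.16 with Pao and at 6.94 and 7.38 with vehicle, a difference of 0.82 (standard error 0.16, adjusted p = 0.169 from limma). *TPP1*, a tripeptidyl peptidase, was at 7.98 and 8.45 with Pao and at 7.49 and 7.90 with vehicle, a difference of 0.52. They were the 2 members past 1.4-fold, and in *TPP1* the groups were separated only narrowly. *CLCN7*, a chloride exchanger, differed by 0.44, the cathepsins *CTSK* and *CTSD* by 0.42 and 0.37, and the ceramidase *ASAH1* by 0.32. Both Pao arrays lay above both vehicle arrays in 12 of the 30 genes, where 27% of all genes separated that way. In autophagy, 21 of 28 genes were above 0, where 59.8% of all genes were, with a median of 0.08. *WIPI1*, which marks the membrane of the forming autophagosome, was at 8.40 and 8.50 with Pao and at 7.44 and 7.67 with vehicle, a difference of 0.89 (standard error 0.12, adjusted p = 0.074 from limma). *SQSTM1*, the cargo receptor p62, was at 8.47 and 8.61 with Pao and at 7.93 and 8.26 with vehicle, a difference of 0.44, and *MAP1LC3B*, which coats the autophagosome, differed by 0.22. *WIPI1* stood well above the rest of its list.

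Several other genes at level 7 or more were past 1.4-fold. *NCR3LG1*, the tumor ligand of the natural killer receptor NKp30, was at 8.70 and 9.24 with Pao and at 7.98 and 8.36 with vehicle, a difference of 0.80. *ICAM1*, an adhesion molecule for leukocytes, was at 8.68 and 8.73 with Pao and at 8.03 and 8.23 with vehicle, a difference of 0.57 (adjusted p = 0.152 from limma). *EPAS1*, the hypoxia factor HIF-2α, was at 8.42 and 8.24 with Pao and at 7.83 and 7.81 with vehicle, a difference of 0.51. In all 3 genes the Pao arrays were above both vehicle arrays, and in BPH-1 the differences were 0.38 for *NCR3LG1*, -0.03 for *ICAM1* and 0.03 for *EPAS1*. Among 29 genes of glycolysis and hypoxia, *ENO2*, a neuronal enolase, and *SLC2A3*, a glucose transporter, were past the fold with 0.60 and 0.52, while the list had a median of 0.06. The second Pao array carried both: *ENO2* was at 7.23 and 7.94 with Pao and at 6.84 and 7.12 with vehicle, and *SLC2A3* at 7.63 and 8.21 with Pao and at 7.26 and 7.53 with vehicle. *PGD*, of the pentose phosphate pathway and a target of NRF2, was at 9.33 and 9.66 with Pao and at 8.81 and 9.15 with vehicle, and differed by 0.52 in a list of 24 NRF2 targets with a median of 0.05. Of the subunits, inhibitors and feedback genes of NFκB, 17 of 22 were above 0, where 59.8% of all genes were. Their median was 0.11, and *ICAM1* was the 1 member past the fold (0.392% of all genes).

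The decreases were spread over matrix genes, signalling genes and genes on no list. The 47 lower genes at level 7 or more were 0.762% of all genes at that level. Of these, 10 stand on 5 lists of matrix genes and 11 on 6 lists of growth factors and chemokines. A further 22 stand on no list, and none stands on the 4 lipid lists. The 21 genes on the matrix, growth factor and chemokine lists had a median of -0.65, against -0.10 for the same genes in BPH-1 cells. In only 4 of them was the closest pair of arrays from different groups more than 1.4-fold apart.

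*HAS2*, which spins hyaluronan out of the plasma membrane, was at 8.72 and 8.93 with Pao and at 9.78 and 10.22 with vehicle, a difference of -1.18 (standard error 0.28, adjusted p = 0.267 from limma). In BPH-1 cells the difference was -1.04. *VCAN*, the large proteoglycan that binds hyaluronan, was at 7.59 and 6.95 with Pao and at 8.33 and 7.90 with vehicle, a difference of -0.85. The arrays of *HAS2* stood far apart between the groups, and those of *VCAN* stood apart by less than the gap within the Pao group. *XYLT1*, which starts the glycosaminoglycan chains of proteoglycans, was at 7.99 and 7.74 with Pao and at 8.48 and 8.36 with vehicle, a difference of -0.56; it is on no list and was picked after its values were seen. Among 12 proteoglycan and hyaluronan genes at level 7 or more, 10 were below 0, where 60.4% of all genes at this level were, with a median of -0.11. The highest was the heparan sulfate proteoglycan *GPC1* at 0.17.

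Of 17 matrix glycoproteins at level 7 or more, 14 were below 0 with a median of -0.14. Of all genes at that level 60.4% were below 0. *THBS1*, a matricellular protein that activates latent TGF-β, was at 8.70 and 7.82 with Pao and at 9.53 and 9.03 with vehicle, a difference of -1.01 (standard error 0.26, adjusted p = 0.297 from limma). *POSTN*, another matricellular protein, was at 7.36 and 6.56 with Pao and at 8.11 and 7.38 with vehicle, a difference of -0.79 in which the groups were separated by 0.02. *TNC*, the hexameric tenascin, was at 10.19 and 9.66 with Pao and at 10.59 and 10.25 with vehicle, a difference of -0.50. All 3 had their higher value on the array numbered 1 in both groups. *FN1*, the main adhesive glycoprotein, was at 10.46 and 10.45 with Pao and at 10.85 and 10.79 with vehicle, a smaller difference of -0.37 with tighter arrays. *TGFBI* and the fibrillin *FBN1* were at -0.34 and -0.28, and *IGFBP7* was the highest at 0.27.

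Collagens at level 7 or more were mostly lower, 8 of 10, with a median of -0.32. Of all genes at that level 60.4% were below 0. *COL8A1* is at that level by its vehicle mean alone (6.58 with Pao, 7.03 with vehicle). *COL1A2*, a chain of collagen I, was at 9.57 and 9.22 with Pao and at 10.04 and 9.78 with vehicle, a difference of -0.51 (standard error 0.12, adjusted p = 0.264 from limma). *COL1A1*, the other chain, was at 9.56 and 9.43 with Pao and at 9.93 and 9.92 with vehicle, a difference of -0.43 (standard error 0.08, adjusted p = 0.144 from limma). *COL5A2*, of the collagen that sets fibril width, was at 7.53 and 7.08 with Pao and at 8.02 and 7.65 with vehicle, a difference of -0.53. The groups did not overlap in these 3 genes. *COL6A3* was at -0.34, *COL12A1* at -0.29 and *COL6A2* at 0.07. Over all 23 measured collagens, 13 of them below level 7, the median was 0.02, and it turned to -0.003 when each array was centred on its median, so the list as a whole had no settled sign. *PLOD2*, which hydroxylates the lysines that crosslink collagen, was at 9.91 and 9.79 with Pao and at 10.59 and 10.12 with vehicle, a difference of -0.51, and *LOX*, the oxidase that forms the crosslinks, was at 9.99 and 9.98 with Pao and at 10.43 and 10.23 with vehicle, a difference of -0.34. The 16 crosslinking genes at level 7 or more had 8 on either side of 0.

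Among proteases and their inhibitors, single members were past the fold. *ADAMTS6*, a secreted metalloprotease, was at 7.07 and 6.74 with Pao and at 7.85 and 7.59 with vehicle, a difference of -0.81 (standard error 0.17, adjusted p = 0.213 from limma). *ADAM19*, a membrane-bound one, was at 7.17 and 6.83 with Pao and at 7.81 and 7.54 with vehicle, a difference of -0.67. Both separated the groups. *MMP2*, the gelatinase, was at 10.19 and 10.24 with Pao and at 10.26 and 10.34 with vehicle, a difference of -0.08, and *MMP3* differed by 0.07. In the plasminogen system, 3 of 10 genes were above 0, where 59.8% of all genes were, with a median of -0.16. The activators *PLAU* and *PLAT* were at -0.36 and -0.35, and in *PLAU* the groups overlapped.

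**Figure D3:**
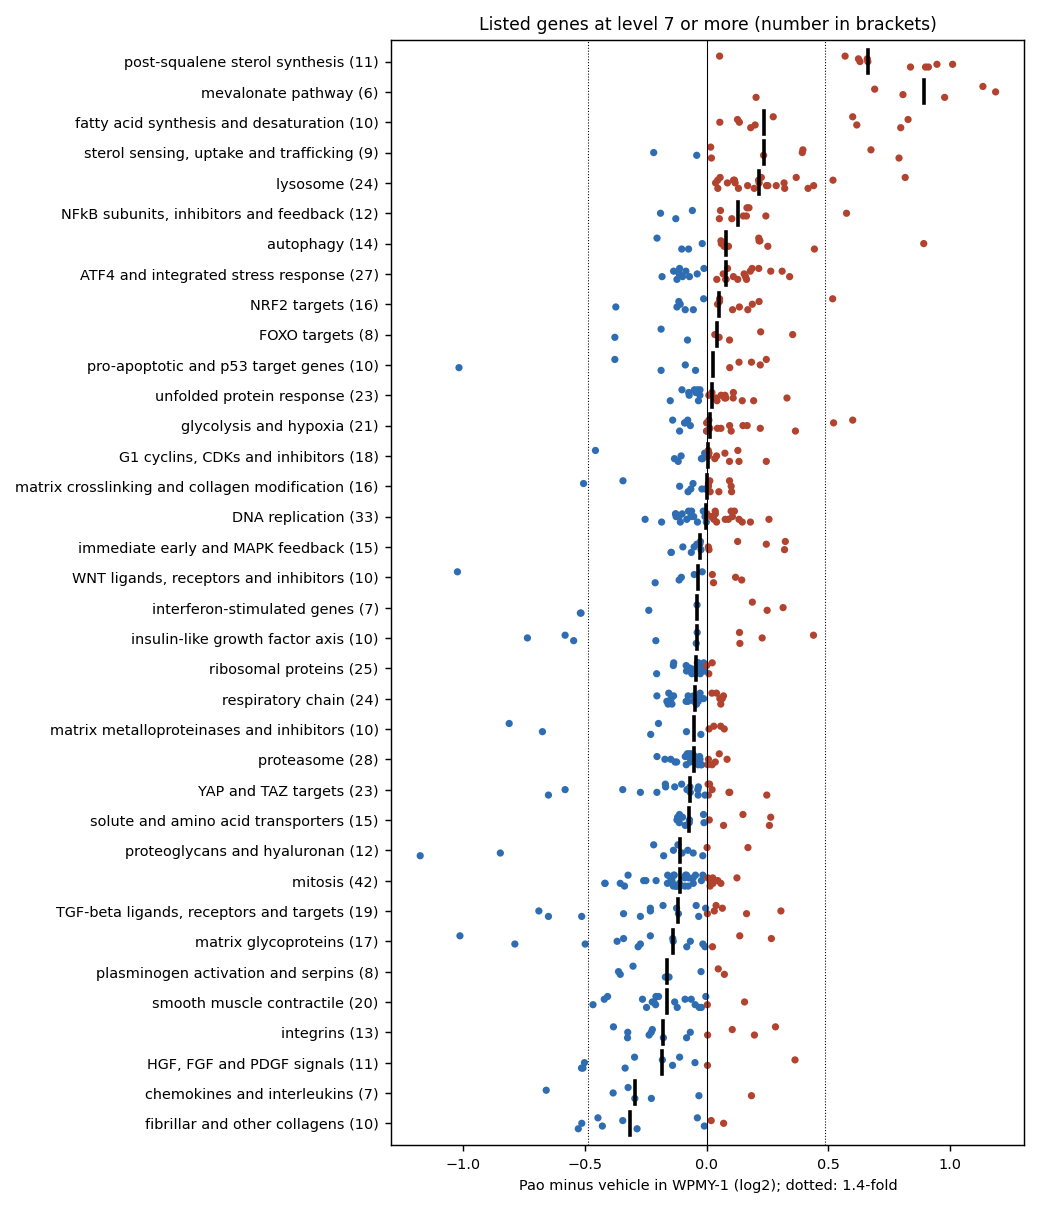
Difference of Pao minus vehicle in WPMY-1 (log2, horizontal axis) for every listed gene at level 7 or more; 1 point per gene, red above 0 and blue below, black bars the median of the list, dotted lines 1.4-fold, number of genes in brackets. The post-squalene and mevalonate genes lie farthest to the right with medians of 0.66 and 0.89, lysosomal genes lie wholly above 0, and collagens, chemokines and growth factors have medians of -0.32, -0.29 and -0.18.

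Single members of the families by which stromal cells send or receive signals were lower, while the medians over whole families were near 0. Over all measured genes the median was 0.09 for the IGF axis (11 of 17 above 0) and 0.04 for TGF-β (21 of 36). It was -0.05 for HGF, FGF and PDGF signals (11 of 27), where 59.8% of all genes were above 0. *WNT5A*, a noncanonical WNT ligand made by stroma, was at 7.94 and 7.03 with Pao and at 8.84 and 8.18 with vehicle, a difference of -1.02 (standard error 0.29, adjusted p = 0.331 from limma), while the 38 WNT genes had a median of 0.04. *INHBA*, the subunit of activin A, was at 8.61 and 8.03 with Pao and at 9.16 and 8.86 with vehicle, a difference of -0.69. *TGFB2*, a TGF-β ligand, was at 6.81 and 6.16 with Pao and at 7.45 and 6.82 with vehicle, a difference of -0.65. In *WNT5A* and *INHBA* the groups did not overlap but stood apart by less than the gap within the Pao group, and in *TGFB2* they nearly touched. *SKIL*, a feedback repressor that TGF-β switches on, was at -0.51, and *CCN2*, a target of TGF-β and YAP, was at -0.27 with overlapping arrays. *FST*, which traps activin, was at 8.98 and 8.56 with Pao and at 8.51 and 8.42 with vehicle, a difference of 0.31. Of 19 TGF-β genes at level 7 or more, 13 were below 0, near the 60.4% of all genes at that level, with a median of -0.12.

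The growth factor axis of IGF held 1 of the genes past the test, and the list as a whole had members on both sides. Arrays that did not overlap were higher in 7 of 17 genes and lower in 4, where 27% and 16.6% of all genes separated in these ways. At level 7 or more 4 were above 0 and 6 below with a median of -0.04, the same split as the 39.6% and 60.4% of all genes at that level. *PAPPA*, the protease that frees IGF by cutting *IGFBP4*, was at 8.10 and 7.95 with Pao and at 8.72 and 8.81 with vehicle, and fell by 0.74 (standard error 0.09, adjusted p = 0.0497 from limma). *STC1*, a stanniocalcin, whose family is known to inhibit that protease, was at 9.70 and 9.78 with Pao and at 9.40 and 9.21 with vehicle, a difference of 0.44 (standard error 0.09, adjusted p = 0.216 from limma). *IGFBP3*, the main carrier of IGF, was at 8.06 and 7.90 with Pao and at 8.64 and 8.48 with vehicle, a difference of -0.58. *IGF1R*, the receptor, was at 8.21 and 7.89 with Pao and at 8.71 and 8.48 with vehicle, a difference of -0.55. Each of these genes separated the groups, with *STC1* in the opposite direction to the other 3. In BPH-1 cells the differences were -0.36 for *PAPPA*, -0.09 for *STC1*, -0.07 for *IGFBP3* and 0.09 for *IGF1R*. The test of the difference between the lines gave an adjusted p of 0.686 from limma for all of them.

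Of 11 genes of HGF, FGF and PDGF signalling at level 7 or more, 9 were below 0 with a median of -0.18. Of all genes at that level 60.4% were below 0. *NRG1* is at that level by its vehicle mean alone (6.68 with Pao, 7.19 with vehicle). *FGF2*, the basic fibroblast growth factor, was at 9.55 and 9.23 with Pao and at 10.03 and 9.76 with vehicle, a difference of -0.51. *PDGFC* was at 7.26 and 6.97 with Pao and at 7.80 and 7.43 with vehicle, a difference of -0.50, and *NRG1*, a ligand of ERBB receptors, was at 6.74 and 6.61 with Pao and at 7.23 and 7.14 with vehicle, a difference of -0.51. *MET*, the receptor of HGF, was at -0.30, and *VEGFC* at -0.33. *PDGFRL*, a secreted protein that resembles the PDGF receptor, was the highest at 0.36.

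Chemokines at level 7 or more were lower in 6 of 7 genes, with a median of -0.29. Of all genes at that level 60.4% were below 0. *CXCL12* is at that level by its vehicle mean alone (6.40 with Pao, 7.06 with vehicle). *CXCL12*, the stromal ligand of CXCR4, was at 6.42 and 6.38 with Pao and at 7.18 and 6.94 with vehicle, a difference of -0.66 (standard error 0.10, adjusted p = 0.112 from limma). *CXCL5*, which draws neutrophils, was at 8.97 and 9.19 with Pao and at 9.20 and 9.61 with vehicle, a difference of -0.32 whose groups nearly touched. *CXCL6* was at 6.10 and 5.96 with Pao and at 6.37 and 6.54 with vehicle, a difference of -0.42. The 3 genes share a direction and differ in how far the arrays stand apart. *CXCL1* was at -0.38, *CCL2* at -0.29 and *CXCL8* at -0.23, and *CSF1* was the 1 gene above 0, at 0.18. Over all 39 chemokine and interleukin genes the median was -0.03, and it was 0.003 after a further quantile normalization.

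At level 7 or more, contractile genes were mostly lower by smaller steps, as were cadherin and catenin genes apart from *CDH6*. *CDH6*, a cadherin of mesenchymal and kidney cells, was at 7.14 and 7.01 with Pao and at 7.78 and 7.83 with vehicle, and fell by 0.73 (standard error 0.08, adjusted p = 0.0488 from limma). All 4 cadherin and catenin genes at level 7 or more were below 0, *CDH2* at -0.23, *CTNNB1* at -0.11 with overlapping arrays and *CTNNA1* at -0.08 besides *CDH6*. Of 20 contractile genes at level 7 or more, 18 were below 0, where 60.4% of all genes at that level were, with a median of -0.16. *TPM1*, a tropomyosin, was at 8.64 and 8.43 with Pao and at 9.19 and 8.82 with vehicle (difference -0.47). Smaller differences were those of *CALD1* at -0.42, *TAGLN* at -0.41, *MYL9* at -0.25 and *TPM2* at -0.22. *SMTN*, smoothelin, was the highest at 0.16. Of 13 integrin genes at level 7 or more, 9 were below 0, near the 60.4% of all genes at that level, with a median of -0.18 (-0.03 over all 23), from *ITGA4* at -0.38 to *ITGB5* at 0.28. The contractile list in BPH-1 cells had a median of 0.01 over its 30 measured genes, against -0.12 in WPMY-1. After a further quantile normalization the median in WPMY-1 was -0.05.

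Markers of stroma were lower beside these groups. Of 23 markers 4 were above 0, where 59.8% of all genes were. The median level of the stromal markers per array was 7.42 and 7.58 with Pao and 7.70 and 7.71 with vehicle. Markers of epithelium had median levels of 5.51 and 5.51 with Pao and 5.18 and 5.45 with vehicle, and markers of endothelium 5.07 and 5.09 with Pao and 4.92 and 5.01 with vehicle, with no endothelial marker at level 7 or more. The stromal list shares collagens and contractile genes with the lists above, so it is no separate measure. These arrays hold a single cell line and no mix of tissue cell types. In bulk RNA, fewer cells in a given state and less RNA per cell cannot be told apart. The part of these shifts in the matrix and contractile differences was not tested.

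Most of the remaining large decreases belong to no list. *NREP*, a small neuronal regeneration protein also made by fibroblasts, was at 7.15 and 6.66 with Pao and at 8.28 and 7.80 with vehicle, a difference of -1.14 (standard error 0.19, adjusted p = 0.129 from limma). *LXN*, latexin, a carboxypeptidase inhibitor, was at 6.40 and 5.98 with Pao and at 7.59 and 6.99 with vehicle, a difference of -1.10. *CRISPLD2*, a secreted LPS-binding protein of mesenchyme, was at 8.06 and 7.39 with Pao and at 8.98 and 8.41 with vehicle, a difference of -0.97. In all 3 genes both Pao arrays lay below both vehicle arrays. Others were the amino acid transporter *SLC6A15* at -0.60, the semaphorin *SEMA3D* at -0.54, the bicarbonate transporter *SLC4A7* at -0.53 and the ubiquitin ligase *HERC4* at -0.51. Of the 47 lower genes, 5 are named as microRNAs, a snoRNA or an intronic transcript (*KCNQ5-IT1*, *MIR548A2*, *MIR548W*, *MIRLET7I* and *SNORD93*), with differences between -0.55 and -0.93. For such short or unspliced transcripts the probes may read host or precursor RNA. *TAS2R30*, a bitter taste receptor, and *BLID*, a gene listed as pro-apoptotic, stood at -0.69 and -1.02 with levels of 6.62 and 6.22 with Pao against 7.35 and 6.86 with vehicle for *TAS2R30*, and 6.62 and 5.93 with Pao against 7.69 and 6.90 with vehicle for *BLID*.

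Lists of stress, death and division had few members past 1.4-fold. *DDIT3*, the stress factor CHOP, was at 6.02 and 6.24 with Pao and at 5.37 and 5.87 with vehicle, a difference of 0.51 (standard error 0.16, adjusted p = 0.346 from limma) below the level taken as well above background. *FBXO32*, a ubiquitin ligase of muscle wasting, was at 8.03 and 7.58 with Pao and at 8.18 and 7.80 with vehicle, a difference of -0.19 with overlapping arrays. In BPH-1 cells the difference of *FBXO32* was 1.00, and the difference between the lines, -1.19, had an adjusted p of 0.557 from limma. *MMP13*, a collagenase, was near background at 3.72 and 3.54 with Pao and 3.51 and 3.56 with vehicle. *PDCD4* was not analysed here. Among 32 pro-apoptotic and p53 target genes 20 were above 0 (62.5%, near the 59.8% of all genes) with a median of 0.07. At level 7 or more 5 were above 0 and 5 below. *CDKN1A*, the p21 inhibitor, was at 7.16 and 7.61 with Pao and 7.04 and 7.24 with vehicle, which overlap. Of 27 ATF4 and integrated stress genes at level 7 or more, 16 were above 0, where 39.6% of all genes at that level were. *PPP1R15A* was at 0.34 and *TRIB3* at 0.31, and among unfolded protein response genes *EIF2AK3*, the kinase PERK, was the highest at 0.33.

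Of 42 mitotic genes at level 7 or more, 33 were below 0, where 60.4% of all genes at that level were. Their median was -0.11, against -0.03 over all genes at that level. Over all 43 measured mitotic genes the median was -0.11, and it was -0.04 after a further quantile normalization. The lowest were *CENPE* at -0.42, *KIF18A* at -0.42 and *ASPM* at -0.35, and in each of these the groups overlapped. For 33 DNA replication genes at that level the median was -0.001, and over all 35 measured genes it turned to 0.03 after a further quantile normalization, with *RFC3* lowest at -0.25 and *MCM2* highest at 0.26. *CDK6*, a kinase of G1, was at 7.84 and 7.61 with Pao and at 8.22 and 8.16 with vehicle, a difference of -0.46, and *CCND1*, its cyclin, was at 9.94 and 9.86 with Pao and at 9.74 and 9.79 with vehicle. Interferon-stimulated genes pointed both ways. Of 7 at level 7 or more, *GBP1* and *SAMD9* were at -0.52 and -0.52, while *IFIT3* and *IFI6* were at 0.31 and 0.25.

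Genes past the test but below level 7 complete the calls. *SLCO4C1*, an organic anion transporter, was at 5.94 and 5.64 with Pao and at 4.16 and 3.90 with vehicle and rose by 1.75 (standard error 0.12, adjusted p = 0.00982 from limma). *LY96*, the partner of TLR4 for LPS, was at 4.64 and 4.63 with Pao and at 3.82 and 3.65 with vehicle. *LIN7A*, a scaffold of cell junctions, was at 5.33 and 5.37 with Pao and at 6.51 and 6.22 with vehicle and fell by 1.02 (adjusted p = 0.0488 from limma). *LIPT2*, *MIR3119-1*, *MIR3136* and *RNU2-7P* had group means between 1.85 and 5.03. All 15 calls lay past the fold. In the test of all 67528 probe sets, named or not, limma called 0 higher and 0 lower, with 3718 (5.51%) and 3190 (4.72%) before adjustment at a p under 0.05, and 365 (0.541%) lay past 1.4-fold upward and 762 (1.13%) downward. Of 10584 probe sets at level 7 or more these were 90 (0.85%) and 144 (1.36%), among them 31 and 92 non-overlapping ones with no symbol or several (0.742% and 2.2% of 4179 such probe sets).

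The second view pairs the arrays by their number. For the 45 higher genes the median difference was 0.63, and 34 of them passed 1.4-fold within both numbers (0.551% of genes at this level). For the 47 lower genes the median was -0.57, and 29 passed 1.4-fold within both (0.47%). Some of the larger differences were alike in both numbers: *HAS2* gave -1.06 and -1.29, *NREP* -1.13 and -1.14, *HMGCS1* 1.25 and 1.12, and *MVD* 1.24 and 1.03 for arrays 1 and 2. Others were less alike, such as *INHBA* with -0.55 and -0.83 and *MIR548W* with -0.85 and -0.45. Within a group the numbers themselves differed in a set way. Of the 45 higher genes, 39 had the array numbered 2 above that numbered 1 in both groups, 1 had the reverse and 5 were mixed. Of the 47 lower genes, 42 had the array numbered 1 above that numbered 2 in both groups, 2 had the reverse and 3 were mixed. Over all 6172 genes at level 7 or more, 38.9% had number 2 higher in both groups and 37.9% had number 1 higher. The step from number 1 to number 2 had a median of 0.19 with Pao and 0.23 with vehicle for the higher genes, and of -0.36 with Pao and -0.30 with vehicle for the lower ones. The larger gap between numbers exceeded the difference between Pao and vehicle in 4 of the higher genes and 7 of the lower. The pair of arrays farthest apart over all probe sets was the second Pao array and the first vehicle array (r = 0.991, with 0.994 to 0.995 for the other pairs). The closest pair was the first Pao array and the second vehicle array (r = 0.9951). The 2 Pao arrays gave 0.9949 and the 2 vehicle arrays 0.9947, so over all probe sets the arrays did not group by treatment. The part of the step from number 1 to number 2 in the differences between Pao and vehicle was not tested.

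**Figure D4:**
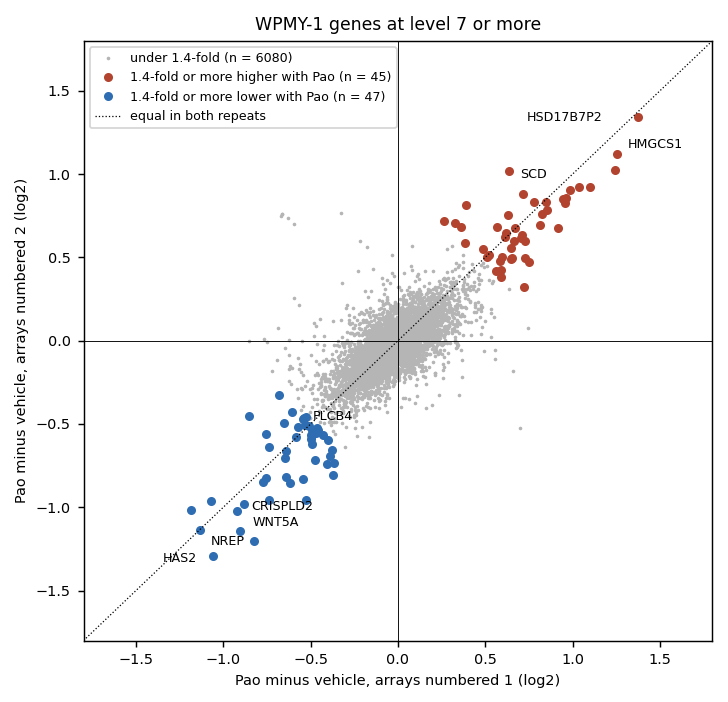
Difference of Pao minus vehicle (log2) for arrays numbered 1 (horizontal axis) and arrays numbered 2 (vertical axis), 1 point per gene at level 7 or more in WPMY-1; red, 45 genes at least 1.4-fold higher, blue, 47 at least 1.4-fold lower, grey, the rest; dotted line, equal differences. Coloured points lie near the dotted line, with 34 of the higher and 29 of the lower genes past 1.4-fold on both axes.

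The difference also moved with the level of a gene. The median was 0.04 to 0.07 in the ranges of level below 7, -0.02 between 7 and 8, and -0.05 to -0.07 above 8. Of the 6172 genes at level 7 or more, 2443 were above 0 and 3729 below. The count of listed genes above or below 0 is therefore read against the share at the same level, and the sterol genes, most of which are at high levels, stood against the drift, while small negative medians of abundant lists such as ribosomal proteins (-0.04), the proteasome (-0.05, and 0.002 after a further quantile normalization) and the respiratory chain (-0.05) lay on it.

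**Figure D5:**
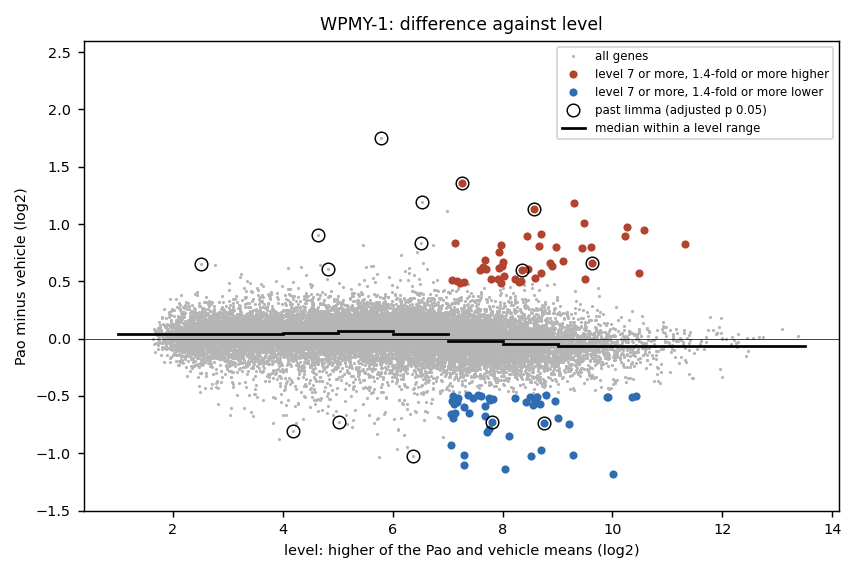
Difference of Pao minus vehicle in WPMY-1 (log2, vertical axis) against level, the higher of the group means (log2, horizontal axis), for 22465 genes; grey, all genes, red and blue, genes at level 7 or more past 1.4-fold, open circles, the 15 genes past limma's test, black bars, the median within a range of level. The medians go below 0 at level 7, and 9 of the 15 circles lie below that level.

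The same genes can be set beside BPH-1. Of the 45 higher genes 42 were above 0 in BPH-1 cells too, where 51.5% of all genes at level 7 or more in WPMY-1 were, 15 were past 1.4-fold there and the median was 0.38. Of the 47 lower genes 26 were below 0 in BPH-1 cells, where 48.5% were, *HAS2* alone was past 1.4-fold and the median was -0.03. In BPH-1 cells 53 of all genes were past 1.4-fold higher (0.236%) and 14 lower (0.0623%). Limma's test of the difference between the lines called 0 genes higher in WPMY-1 and 0 lower, with 1017 (4.53%) and 585 (2.6%) before adjustment, so no single gene is shown to respond differently in the lines. Several of the lower genes were at low levels in BPH-1: *POSTN* was between 2.85 and 3.05 on the BPH-1 arrays, *VCAN* between 3.88 and 4.10 and *WNT5A* between 4.57 and 4.82. Whether such levels bear on the differences in BPH-1 was not tested. For *THBS1*, *INHBA*, *IGFBP3* and *IGF1R*, all at level 7 or more in BPH-1, the differences there were -0.45, -0.17, -0.07 and 0.09, against -1.01, -0.69, -0.58 and -0.55 in WPMY-1.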

How the data were processed

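RNA of WPMY-1 and BPH-1 cells, each treated with Pao extract or vehicle, was hybridised to Affymetrix Human Transcriptome Arrays 2.0, with 2 arrays in each of 4 groups. The authors deposited log2 values after RMA, which corrects background, normalizes arrays by quantiles and summarizes probes, so differences that touch all genes alike are removed. Versions and genome build are not given in the sources used here. Depth has no meaning for arrays, and their number limits the precision.

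Of 67528 probe sets, 23781 carried 1 gene symbol in the platform annotation, 1543 carried several and 42204 none. For each of 22465 genes the probe set of highest mean level on the 8 arrays was taken. Limma 3.58.1 in R 4.3.3 fitted 1 mean per group over all 8 arrays (4 residual degrees of freedom), with Benjamini-Hochberg adjustment over all genes at 0.05, and was tested on simulated data. Standard errors come from that fit. With 2 arrays a group, the smallest two-sided p of an exact permutation test is 0.333.

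Named were genes past the test, the 20 largest changes each way among genes at level 7 or more with no overlap, up to 6 members of each of 44 gene lists at that level with the largest difference, and the genes the study measured by PCR. Others are list extremes, markers, or genes picked after their values were seen, among them *VIM*, *MVK*, *TMEM97*, *EPAS1*, *NSDHL*, *SQLE*, *PGD*, *PLOD2*, *XYLT1*, *NRG1*, *SKIL* and *HERC4*. The lists and their members were chosen with earlier results of these data known. Promoters came from RefSeq (GRCh38.p14). Alternatives were a further quantile normalization, centring, a filter at level 5, other probe sets per gene, the WPMY-1 arrays alone, a trended robust variance, the repeat number as a block, each array left out, other cutoffs, and the methods' t-test.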

Additional observations from a re-analysis of the deposited data

Results flagged for a closer look

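Both Pao arrays lay below both vehicle arrays in WPMY-1 cells and above both in BPH-1 cells in 470 of all genes (2.09%), and in 198 of the 6172 genes at level 7 or more (3.21%). The 10 given here are those of them past limma's test or past 1.4-fold at level 7 or more. The differences in WPMY-1 cells were -1.10 for *LXN*, -0.97 for *CRISPLD2*, -0.73 for *RNU2-7P*, -0.55 for *IGF1R*, -0.52 for *GBP1*, -0.52 for *SAMD9*, -0.51 for *SKIL*, -0.51 for *FGF2*, -0.51 for *HERC4* and -0.49 for *SOCS5*. In BPH-1 cells they were 0.32 for *LXN*, 0.16 for *CRISPLD2*, 0.17 for *RNU2-7P*, 0.09 for *IGF1R*, 0.24 for *GBP1*, 0.27 for *SAMD9*, 0.22 for *SKIL*, 0.13 for *FGF2*, 0.26 for *HERC4* and 0.12 for *SOCS5*. Limma's test of the difference between the lines passed for 0 of all genes after adjustment. Its lowest unadjusted p among these genes was 3.11e-05 for *RNU2-7P*, with 4.49e-05 for *HERC4*, and both had an adjusted p of 0.327.

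Probe sets with no symbol or several symbols entered no comparison by gene. Of 4179 such probe sets at level 7 or more, 31 were at least 1.4-fold higher with Pao and did not overlap (0.742%), and 92 were lower in the same way (2.2%). What RNA they read is not known here.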

How the results depend on the processing

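The limma calls (10 higher, 5 lower) depended on the processing, and the cause was not tested. They numbered 3 higher and 1 lower after a further quantile normalization, 3 and 0 after centring, 4 and 2 with the probe set of largest spread, 0 and 0 with the WPMY-1 arrays alone, 6 higher with a trended robust variance, 21 and 9 at an adjusted p of 0.1, and 0 and 0 by the methods' t-test after adjustment (1017 and 610 before). Leaving out 1 array gave 0 to 5 higher and 0 to 4 lower. Without probe sets that share all values with another, 1 probe set was called higher.

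With the replicate number as a block, limma called 98 genes higher and 125 lower, among them all 15 calls made without it, 32 of the 45 higher and 35 of the 47 lower genes past 1.4-fold at level 7 or more (4 and 2 without it). Deviations from the group means of arrays with the same number correlated at r = 0.429 in WPMY-1 and 0.501 in BPH-1 over 22465 genes, which are not independent. The labels do not say what the number marks, so the arrays share only a number.

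Past 1.5-fold there were 52 genes higher and 74 lower, past 2-fold 7 and 8, and with 1 array left out 93 to 201 higher and 105 to 377 lower. At level 7 or more, 22 were lower past 1.5-fold, 4 higher and 6 lower past 2-fold, 34 to 86 higher and 26 to 154 lower with 1 array left out, 28 higher and 22 lower at level 8, and 76 lower at level 6. Over all genes the counts were 156 higher and 312 lower without the first Pao array, and 201 and 377 without the second vehicle array.

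List medians with 1 array left out ranged from 0.642 to 0.866 for post-squalene genes, 0.0884 to 0.207 for sterol sensing, -0.00719 to 0.0904 for collagens, -0.152 to -0.0653 for plasminogen activation, -0.0798 to 0.0225 for integrins, 0.0492 to 0.131 for the IGF axis, -0.0299 to 0.0273 for EGF receptors, 0.0214 to 0.168 for NFκB, 0.0142 to 0.0909 for pro-apoptotic genes, -0.113 to 0.139 for glycolysis, -0.0985 to 0.0159 for the proteasome, -0.279 to -0.144 for stromal markers and 0.0786 to 0.314 for lysosomal genes. Further quantile normalization gave 0.0498 for pro-apoptotic genes and 0.00154 for the proteasome, centring gave 0.0433 for pro-apoptotic genes, and the filter at level 5 gave -0.0544 for EGF receptors and -0.234 for stromal markers. *FBXO32* ranged from -0.415 to 0.0414 with 1 array left out, above 0 without the second Pao array and, at 0.000215, without the first vehicle array.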
